A study of Mus musculus with 110 samples.

Results

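The hormone genes Fgf21 and Gdf15 and the FGF21 receptor genes Klb, Fgfr1, Fgfr2, Fgfr3 and Fgfr4 were followed in liver, interscapular brown fat (iBAT), inguinal white fat (iWAT) and epididymal white fat (eWAT) of wild-type male C57BL/6N mice. These 7 genes were taken by name from the 56884 genes of the count tables, whatever their values, and all 7 passed the count filter in all 4 tissues. The mice were 16 weeks old at the end of the experiment, were housed singly and ate a cysteine-free diet in every group. Ctrl_RT mice ate a diet with 0.86% methionine and MetR_RT mice a methionine-restricted diet with 0.12% methionine, both for 7 days at 22 °C. Ctrl_CE and MetR_CE mice ate the same diets for 7 days and then spent a further 24 h at 4 °C. Each group comprised 7 mice, whose tissues were taken in the light phase. Of 110 polyA RNA libraries, 105 were analysed, with 7 per group in liver, 6 or 7 in iBAT and iWAT, and in eWAT 4 of Ctrl_RT, 6 of MetR_RT and 7 of each CE group.

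FGF21 is a circulating FGF that is made mainly in liver and acts on cells that carry both an FGF receptor and the co-receptor β-Klotho, the product of Klb. FGFR1 is the main partner of β-Klotho in adipocytes, whereas FGFR4 pairs with β-Klotho in hepatocytes to receive the intestinal hormone FGF15, which represses bile acid synthesis. GDF15 is a distant member of the TGF-β family that is released by stressed cells and acts through GFRAL and RET in the hindbrain to reduce food intake. Both hormone genes are known targets of the integrated stress response, in which kinases that sense amino acid shortage and other stresses raise ATF4, and hepatic Fgf21 is also a target of the fasting receptor PPARα.

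The promoters of both hormone genes and of the co-receptor gene Klb are shown because the results below are read beside regulators known to act on them. They were taken from RefSeq on GRCm38.p6, run from 250 bases before to 50 bases after the annotated start, and are written 5′ to 3′ on the strand of the gene. Capitals mark matches to TGATGNAA (the composite element of ATF4 and C/EBP factors), TGACG (the core of the cAMP response element), AGGTCA (a nuclear receptor half-site) or CACGTG (an E-box), each searched on both strands. TGACGTCA, which contains TGACG, was also searched.
Fgf21, chr7:45615441-45615740, minus strand: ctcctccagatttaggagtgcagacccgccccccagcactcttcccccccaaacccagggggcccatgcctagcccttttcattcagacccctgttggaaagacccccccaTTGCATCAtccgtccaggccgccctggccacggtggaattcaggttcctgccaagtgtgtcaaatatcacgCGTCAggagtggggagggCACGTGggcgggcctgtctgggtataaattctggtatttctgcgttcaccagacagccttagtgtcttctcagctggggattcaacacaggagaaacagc
Gdf15, chr8:70632407-70632706, minus strand: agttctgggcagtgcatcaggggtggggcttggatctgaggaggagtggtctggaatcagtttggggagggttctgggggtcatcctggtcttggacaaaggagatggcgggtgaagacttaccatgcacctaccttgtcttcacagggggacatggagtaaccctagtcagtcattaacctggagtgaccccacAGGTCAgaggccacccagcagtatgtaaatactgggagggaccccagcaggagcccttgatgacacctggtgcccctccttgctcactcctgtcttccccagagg
Klb, chr5:65348161-65348460, plus strand: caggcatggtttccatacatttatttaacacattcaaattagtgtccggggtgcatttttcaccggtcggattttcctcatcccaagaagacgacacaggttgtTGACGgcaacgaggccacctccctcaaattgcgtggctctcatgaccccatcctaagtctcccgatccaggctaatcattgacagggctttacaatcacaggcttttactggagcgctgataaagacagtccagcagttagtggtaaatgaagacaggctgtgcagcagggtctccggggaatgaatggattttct
The Fgf21 promoter held TGATGNAA on the reverse strand, read here as TTGCATCA, with its first base 139 bases before the start. It also held TGACG on the reverse strand, 68 bases before the start, and CACGTG 50 bases before it. The Gdf15 promoter held AGGTCA 55 bases before the start, and Klb held TGACG 146 bases before it. A further Gdf15 start had CACGTG 83 bases upstream, Fgfr2 had CACGTG 28 bases downstream of a start, and the Fgfr3 and Fgfr4 windows held none of the 5 motifs. Among 32851 promoters of the same length, 3.97% held TGATGNAA, 20.8% TGACG, 1.79% TGACGTCA, 16.3% AGGTCA and 7.15% CACGTG. These matches are descriptions of letters and not evidence of binding. RefSeq entries were found for 6 of the 7 genes, and Fgfr1 was not matched.

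Library totals ran from 6987895 to 33444374 counts. Levels are in CPM, counts relative to the library total, with TMM scaling within a tissue. A gene was called where edgeR's quasi-likelihood test gave an adjusted p below 0.05 over all genes of the tissue and a change of at least 1.5-fold. Fold changes are log2 values ± SE, and all comparisons with Ctrl_RT share its libraries. Hepatocyte markers summed to 46679 to 84717 CPM in liver and white adipocyte markers to at least 8396 CPM in every iWAT and 10465 CPM in every eWAT library. Brown adipocyte markers summed to 8686 to 19067 CPM in iBAT. A lower level in these bulk tissues can come from fewer cells of a type or from less RNA per cell, which cannot be told apart here. For 3 iBAT libraries, replicate 1 of Ctrl_CE, MetR_RT and MetR_CE, a treatment tag named another group than the title, and the title was used.

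At room temperature on the control diet, liver carried more of both hormone transcripts than fat. Fgf21 ranged from 1.24 to 11.7 CPM in liver, above every library of the fat depots, and its ranges in iBAT (0.33 to 0.945 CPM), iWAT (0.224 to 0.677 CPM) and eWAT (0.0675 to 1.23 CPM) overlapped. Gdf15 was highest in liver (5.74 to 22.5 CPM), where the range overlapped only that of iWAT (0.833 to 9.29 CPM), and lowest in iBAT (0.0782 to 0.688 CPM). Per kilobase of exon, the receptor genes of liver were led by Fgfr4, with a Ctrl_RT median of 19.5 CPM per kb, followed by Fgfr3 at 7.12, Klb at 4.46, Fgfr2 at 3.22 and Fgfr1 at 1.51 CPM per kb. In fat the order was led by Fgfr1 and Klb, at medians of 28.8 and 15.6 CPM per kb in iWAT and 33.6 and 16.8 CPM per kb in eWAT, whereas iBAT had 12.4 CPM per kb of Klb and 9.17 CPM per kb of Fgfr1. Fgfr4, the FGF15 receptor of hepatocytes, had 59 to 79.2 CPM in Ctrl_RT liver and 0 to 8 counts per library in iBAT and iWAT. Counting could not use strand, and 1.66% of the exon bases of Fgfr1 and 13.9% of those of Fgfr3 are shared with Gm16159 and G630022F23Rik on the opposite strand. Fgfr2 shares 3.04% of its exon bases with Ctbp2 on the same strand, whereas Fgf21, Gdf15, Klb and Fgfr4 share none.

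In liver, Fgf21 was higher in both restricted groups than in Ctrl_RT, and its level varied widely between mice. It was 1.24, 2.99 and 11.7 CPM (lowest, median and highest of 7) in Ctrl_RT and 3.57, 30.6 and 130.2 CPM in MetR_RT. In the cold it was 1.25, 6.46 and 18.8 CPM in Ctrl_CE and 3.36, 10.6 and 61.1 CPM in MetR_CE. The groups overlapped, with 5 of 7 MetR_RT and 3 of 7 MetR_CE libraries above the highest Ctrl_RT library. The change was 3.05 ± 0.71 in MetR_RT, or 8.29-fold (adjusted p = 0.00247), and 1.9 ± 0.72 in MetR_CE, or 3.73-fold (adjusted p = 0.0429). Leaving out 1 library at a time kept the MetR_RT call in all 28 fits and lost the MetR_CE call in 8 of 28, and without MetR_CE replicate 1 the change was 1.27 (adjusted p = 0.191). Cold alone gave 0.71 ± 0.73 (adjusted p = 0.518), and the interaction of diet and cold was −1.86 ± 0.97 (adjusted p = 0.346). Within the cold, MetR_CE differed from Ctrl_CE by 1.19 ± 0.67 (adjusted p = 0.278).

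**Figure D1:**
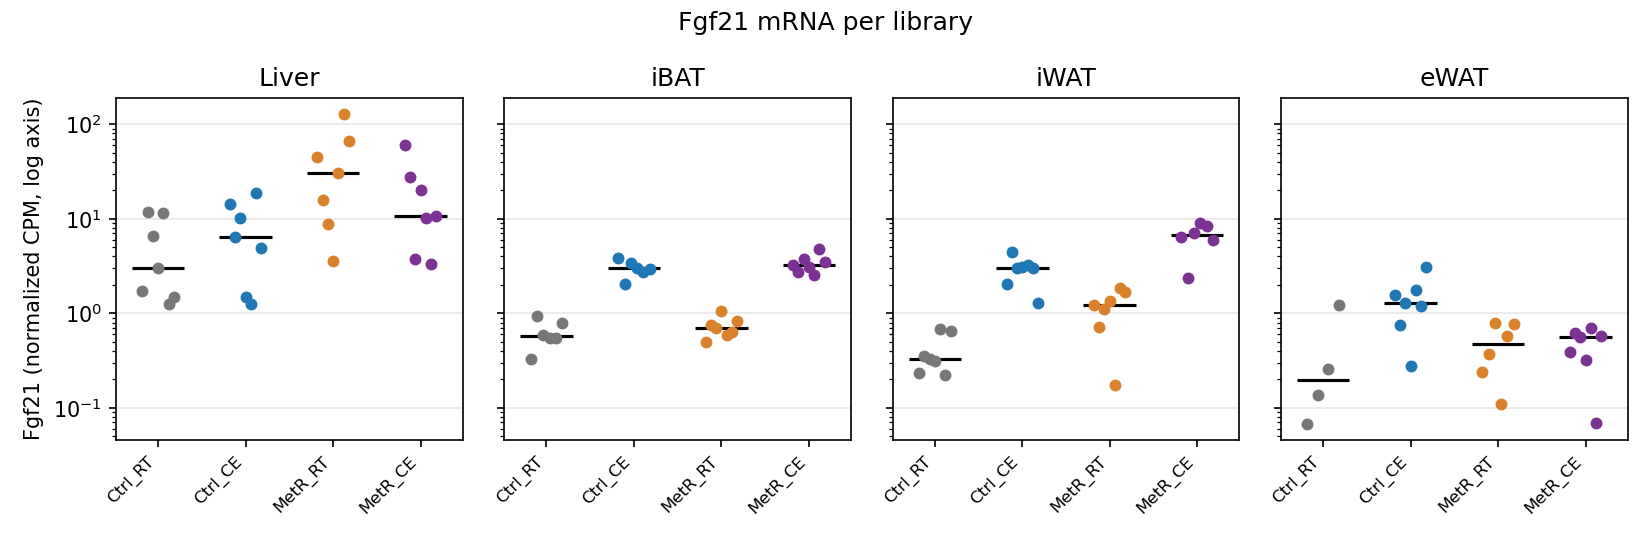
Fgf21 in each library of the 4 tissues, in normalized CPM on a log axis, by group, with a bar at the median. Liver MetR_RT libraries reach 130.2 CPM and overlap Ctrl_RT, whereas all CE libraries of iBAT and iWAT lie above the highest Ctrl_RT library of their tissue.

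Hepatic Gdf15, in contrast, was called lower in both cold groups and was not called in MetR_RT. It was 5.74, 10.8 and 22.5 CPM in Ctrl_RT and 2.63, 4.76 and 7.22 CPM in Ctrl_CE. MetR_RT libraries had 4.24, 18.4 and 41.5 CPM and MetR_CE libraries 2.39, 3.76 and 9 CPM. Both cold groups thus sat low, each overlapping the lower end of Ctrl_RT. Gdf15 fell by 1.18 on the log2 scale in Ctrl_CE (SE 0.37, adjusted p = 0.0147), by 1.20 in MetR_CE (SE 0.37, adjusted p = 0.0133), and by 2.09 in MetR_CE against MetR_RT (SE 0.37, adjusted p = 0.000125). Without Ctrl_RT replicate 1, the highest of its group, the first and second of these changes were −0.90 and −0.93 and were no longer called (adjusted p = 0.0642 and 0.0587). In MetR_RT the change was 0.88 ± 0.34 (adjusted p = 0.0711), and it was called without Ctrl_RT replicate 1 (1.15, adjusted p = 0.0197) or without MetR_RT replicate 4 (1.05, adjusted p = 0.0165). Summed macrophage markers had medians of 101, 196, 59.2 and 97.2 CPM and endothelial markers of 65.7, 163, 94 and 156 CPM in Ctrl_RT, Ctrl_CE, MetR_RT and MetR_CE liver, and their part in these results was not tested.

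**Figure D2:**
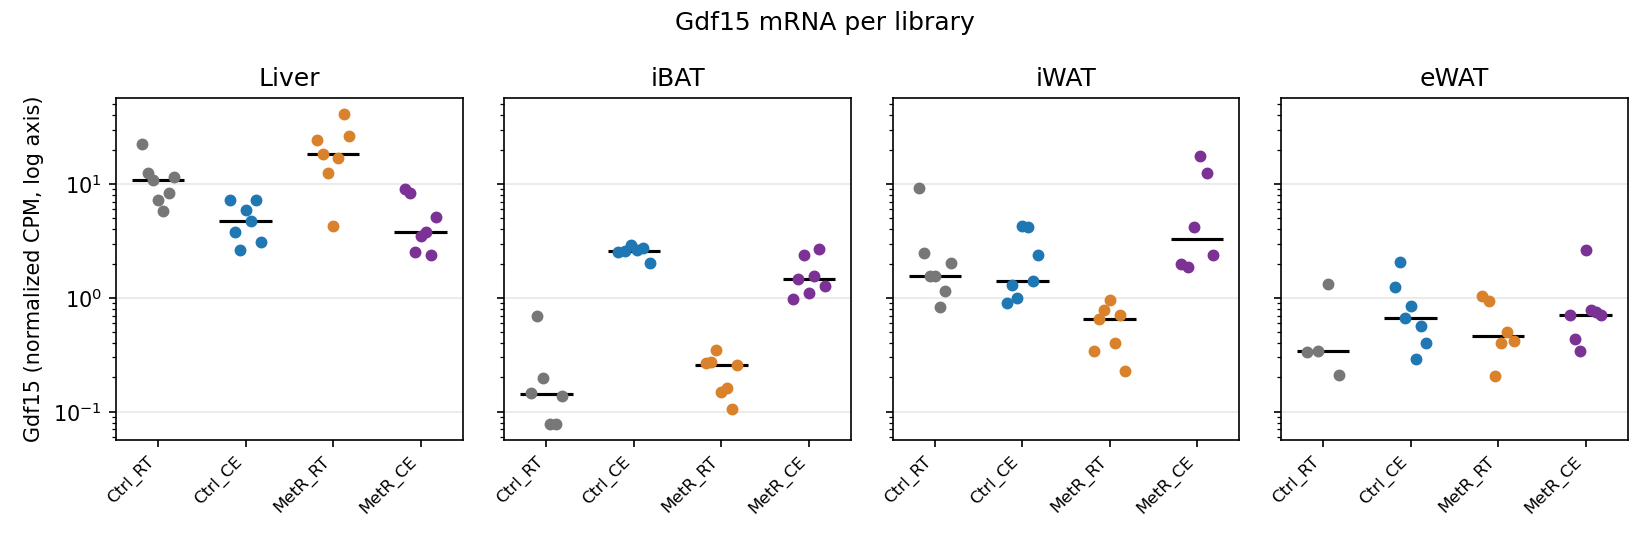
Gdf15 in each library of the 4 tissues, in normalized CPM on a log axis, by group, with a bar at the median. Cold libraries sit low in liver (medians of 4.76 and 3.76 CPM) and high in iBAT (2.6 and 1.47 CPM), and MetR_RT libraries of iWAT lie between 0.226 and 0.953 CPM.

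Mice of a restricted group with much hepatic Fgf21 also had much hepatic Gdf15, although the changes of these genes against Ctrl_RT had opposite signs in MetR_CE. The mouse with the highest Fgf21 in MetR_RT (replicate 6, 130.2 CPM) had the highest Gdf15 (41.5 CPM), and the mouse with the lowest (replicate 4, 3.57 CPM) had the lowest Gdf15 (4.24 CPM). On the log2 scale Pearson's r was 0.950 in MetR_RT (n = 7, exact permutation p = 0.00119, adjusted 0.0179) and Spearman's rho 0.964 (exact permutation p = 0.00278, adjusted 0.0417). In MetR_CE liver r was 0.897 (n = 7, exact permutation p = 0.00675, adjusted 0.0337) and rho 0.893 (exact permutation p = 0.0123, adjusted 0.0833). Without the 2 mice farthest from the median of Fgf21, r was 0.920 in MetR_RT and 0.766 in MetR_CE. In Ctrl_RT and Ctrl_CE liver r was −0.307 (n = 7, exact permutation p = 0.512) and 0.105 (n = 7, exact permutation p = 0.812), the latter 0.766 without 2 mice. These tests were two-sided, covered 15 tissue and group combinations and were chosen after the values had been seen. Among the others, MetR_CE iWAT had an r of 0.701 (n = 6, exact permutation p = 0.00556, adjusted 0.0337) and a rho of 0.943 (exact permutation p = 0.0167, adjusted 0.0833), with an r of 0.947 without 2 mice.

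**Figure D3:**
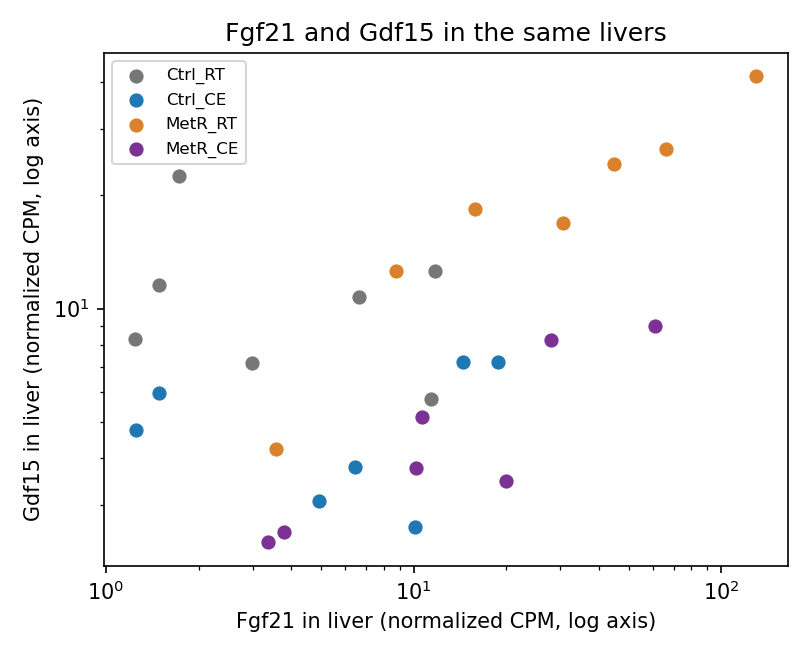
Gdf15 against Fgf21 in the same 28 livers, both in normalized CPM on log axes, with colours for the 4 groups. MetR_RT and MetR_CE points each run upwards (r of 0.950 and 0.897), with MetR_CE at lower Gdf15, whereas Ctrl_RT points do not (r of −0.307).

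Among the receptor genes of liver, Klb rose and Fgfr1 fell. Klb, which encodes β-Klotho, was 11.6, 20.3 and 33.2 CPM in Ctrl_RT, 30.1, 38.5 and 46.1 CPM in Ctrl_CE, 30.8, 40.1 and 43.3 CPM in MetR_RT and 42.9, 47.4 and 54.7 CPM in MetR_CE. All MetR_CE libraries were above the highest Ctrl_RT library. The changes were 0.80 ± 0.13 in Ctrl_CE (adjusted p = 3.51e-05), 0.81 ± 0.13 in MetR_RT (adjusted p = 5.74e-05) and 1.14 ± 0.14 in MetR_CE (adjusted p = 1.14e-07), with an interaction of −0.48 ± 0.19 (adjusted p = 0.196). Fgfr1 was 13.1, 14.9 and 18.2 CPM in Ctrl_RT, 9.99, 12.7 and 14 CPM in Ctrl_CE, 4.86, 6.61 and 9 CPM in MetR_RT and 5.61, 8.57 and 10.2 CPM in MetR_CE. Neither restricted group overlapped Ctrl_RT. Fgfr1 fell by 1.13 in MetR_RT (SE 0.14, adjusted p = 4.94e-07) and by 0.93 in MetR_CE (SE 0.14, adjusted p = 3.17e-06), and its change in Ctrl_CE of −0.35 ± 0.13 (adjusted p = 0.0449) was under 1.5-fold. All calls for Klb and Fgfr1 against Ctrl_RT held in each of the 28 fits that left out a library.

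The hepatic levels of the remaining receptors differed from Ctrl_RT by less than 1.5-fold, Fgfr2 only narrowly. Fgfr2 had medians of 33.3, 40.9, 47.4 and 48.2 CPM in Ctrl_RT, Ctrl_CE, MetR_RT and MetR_CE, with changes of 0.38 ± 0.12 (adjusted p = 0.0165), 0.48 ± 0.12 (adjusted p = 0.00499) and 0.58 ± 0.12 (adjusted p = 0.000394), of which the last passed 1.5-fold and was called in 7 of 28 fits that left out a library (0.60 to 0.64). For Fgfr4 the medians were 69, 58.7, 53 and 48.2 CPM, with changes of −0.21 ± 0.10 (adjusted p = 0.0932), −0.40 ± 0.10 (adjusted p = 0.00291) and −0.44 ± 0.10 (adjusted p = 0.000587). Fgfr3 medians lay between 44.8 and 63.2 CPM, and its adjusted p was at least 0.245 in the 3 comparisons with Ctrl_RT. In all, 2 of the 7 genes were called in Ctrl_CE, 3 in MetR_RT and 4 in MetR_CE liver, beside 11.9%, 6.91% and 13.5% of all 22143 genes tested. MetR_CE against MetR_RT gave 1 call (Gdf15), beside 5.18% of all genes. The interaction and MetR_CE against Ctrl_CE gave 0 (2 and 3 at an unadjusted p below 0.05), beside 1.06% and 5.26%. In the latter, Fgfr1 gave −0.58 ± 0.14 (adjusted p = 0.0042) and was called in 7 of 28 fits that left out a library (−0.64 to −0.60). Hepatocyte markers had medians of 62378, 57493, 62640 and 50602 CPM in the 4 groups.

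**Figure D4:**
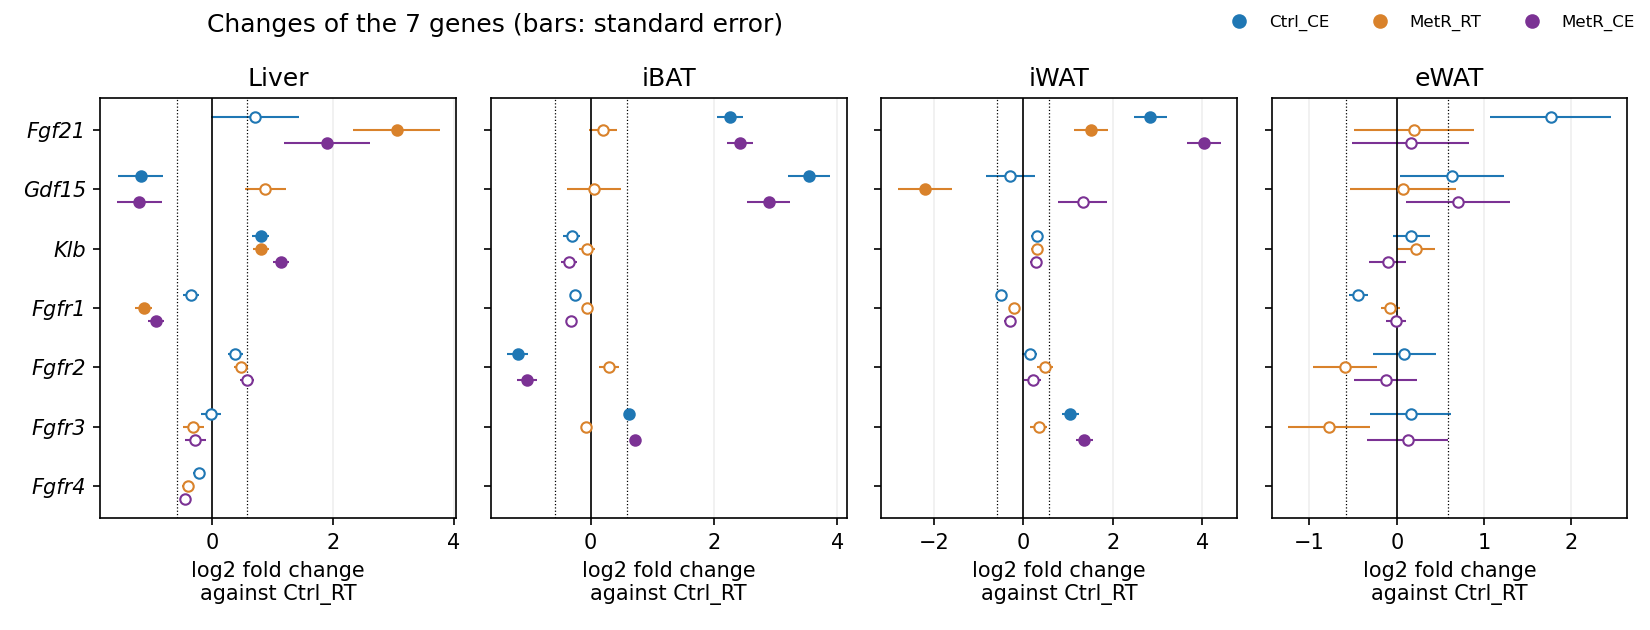
Log2 fold changes against Ctrl_RT of the 7 genes in each tissue, with bars for the SE, colours for Ctrl_CE, MetR_RT and MetR_CE, filled points for called changes and dotted lines at 1.5-fold. Each panel has its own horizontal range, and Fgfr4 is drawn for liver only. Liver calls involve Fgf21, Gdf15, Klb and Fgfr1, iBAT calls appear in the cold groups only, and eWAT has 0 filled points.

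In iBAT, cold raised both hormone genes and Fgfr3 and lowered Fgfr2, and no member was called for diet alone. Fgf21 was 0.33, 0.573 and 0.945 CPM in Ctrl_RT and 0.492, 0.699 and 1.05 CPM in MetR_RT, against 2.02, 3 and 3.88 CPM in Ctrl_CE and 2.54, 3.26 and 4.84 CPM in MetR_CE. The cold libraries lay above all room temperature libraries. Fgf21 rose by 2.26 ± 0.21 in Ctrl_CE (4.78-fold, adjusted p = 1.09e-09) and by 2.42 ± 0.21 in MetR_CE (5.36-fold, adjusted p = 2.7e-10), and MetR_RT gave 0.20 ± 0.23 (adjusted p = 0.684). Gdf15, at 2 to 16 counts per Ctrl_RT library, was 0.0782, 0.142 and 0.688 CPM there and 0.105, 0.258 and 0.349 CPM in MetR_RT, against 2.04, 2.6 and 2.93 CPM in Ctrl_CE and 0.983, 1.47 and 2.67 CPM in MetR_CE. Here too the cold libraries did not overlap the others. Gdf15 rose by 3.55 ± 0.34 in Ctrl_CE (11.7-fold, adjusted p = 2.41e-09) and by 2.89 ± 0.35 in MetR_CE (7.4-fold, adjusted p = 1.2e-07), and MetR_CE differed from Ctrl_CE by −0.66 ± 0.27 (adjusted p = 0.166). Summed brown adipocyte markers also stood higher in the cold, at medians of 16122 and 17655 CPM in Ctrl_CE and MetR_CE against 9537 CPM in Ctrl_RT and 10674 CPM in MetR_RT, and their part in these results was not tested.

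The receptor genes of iBAT moved in opposite directions in the cold. Fgfr2, which encodes a receptor with epithelial and mesenchymal splice forms, was 5.7, 8.91 and 11 CPM in Ctrl_RT, 2.89, 3.66 and 4.79 CPM in Ctrl_CE, 8.32, 10.4 and 12.7 CPM in MetR_RT and 2.01, 4.21 and 5.54 CPM in MetR_CE. All cold libraries were below all room temperature libraries, and Fgfr2 fell by 1.18 in Ctrl_CE (SE 0.17, adjusted p = 2.65e-06) and by 1.03 in MetR_CE (SE 0.17, adjusted p = 1.21e-05). Summed mesothelium markers had medians of 4.61, 1.6, 4.25 and 1.92 CPM in Ctrl_RT, Ctrl_CE, MetR_RT and MetR_CE iBAT, with 4.21 to 8.83 CPM in Ctrl_RT and 1.39 to 1.93 CPM in Ctrl_CE. Summed fibroblast markers had medians of 306, 199.7, 177 and 145 CPM, and the part of either cell type in the Fgfr2 result was not tested. Fgfr3 ran the other way, from 4.49, 4.73 and 6.29 CPM in Ctrl_RT and 4.26, 4.78 and 5.68 CPM in MetR_RT to 7.18, 7.85 and 8.54 CPM in Ctrl_CE and 7.66, 8.4 and 9.43 CPM in MetR_CE. It rose by 0.63 ± 0.09 (adjusted p = 1.87e-06) and 0.73 ± 0.09 (adjusted p = 1.26e-07), again without overlap. The genes of the main FGF21 receptor of adipocytes differed less: Klb had medians of 56.6, 44.7, 51.9 and 41.7 CPM in Ctrl_RT, Ctrl_CE, MetR_RT and MetR_CE, and Fgfr1 of 90.6, 72, 87 and 72.7 CPM. In MetR_CE, the changes were −0.35 ± 0.14 for Klb (adjusted p = 0.0471) and −0.32 ± 0.07 for Fgfr1 (adjusted p = 0.000937), both under 1.5-fold. Against Ctrl_RT, 4 of the 7 genes were called in each cold group, beside 14.7% of all 23915 genes in either comparison, and 0 in MetR_RT (edgeR, with 0 at an unadjusted p below 0.05), beside 2.5%. MetR_CE against MetR_RT called the same 4 genes, beside 8.53% of all genes, whereas the interaction and MetR_CE against Ctrl_CE gave 0 (0 and 1 at an unadjusted p below 0.05), beside 0.372% and 1.64%. Leaving out any of the 26 libraries kept all 12 calls of iBAT.

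In iWAT, Fgf21 rose with cold, with diet and most in MetR_CE. It was 0.224, 0.33 and 0.677 CPM in Ctrl_RT, 1.29, 3.03 and 4.51 CPM in Ctrl_CE, 0.174, 1.23 and 1.85 CPM in MetR_RT and 2.39, 6.77 and 9.11 CPM in MetR_CE. Fgf21 had 5 to 22 counts per library in Ctrl_RT and 3 to 40 in MetR_RT. Both cold groups lay above Ctrl_RT without overlap, and in MetR_RT all libraries but replicate 5 (0.174 CPM) were above the highest Ctrl_RT library. The changes were 2.84 ± 0.37 in Ctrl_CE (7.15-fold, adjusted p = 4.24e-06), 1.52 ± 0.38 in MetR_RT (2.87-fold, adjusted p = 0.00415) and 4.03 ± 0.38 in MetR_CE (16.3-fold, adjusted p = 4.99e-08), with an interaction of −0.33 ± 0.49 (adjusted p = 0.798). MetR_CE exceeded MetR_RT by 2.51 ± 0.35 (adjusted p = 0.000195) and Ctrl_CE by 1.19 ± 0.33 (adjusted p = 0.0445), and the last call was lost in 11 of 27 fits that left out a library, with changes of 1.06 to 1.37 over all 27. Summed brown adipocyte markers (Ucp1, Cidea, Cox8b, Elovl3 and Dio2) moved in the same direction, at medians of 309.5, 3424, 1827 and 5071 CPM in Ctrl_RT, Ctrl_CE, MetR_RT and MetR_CE, and MetR_RT replicate 5 had 450 CPM against 1479 to 5052 CPM in the other MetR_RT libraries. Fibroblast markers ran the other way, at medians of 6112, 1797, 1190 and 890.1 CPM, as did macrophage markers at 500.3, 223, 183 and 125 CPM. Skeletal muscle markers had medians of 126, 155, 602 and 806 CPM, with ranges that overlapped in all groups and reached 16829 CPM in MetR_RT, and hepatocyte markers of 23.8, 48.8, 71.6 and 84.7 CPM. The part of these cell types in the iWAT results was not tested.

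In iWAT, Gdf15 fell in MetR_RT and was higher in MetR_CE than in MetR_RT. It was 0.833, 1.55 and 9.29 CPM in Ctrl_RT and 0.905, 1.4 and 4.24 CPM in Ctrl_CE. MetR_RT libraries had 0.226, 0.648 and 0.953 CPM and MetR_CE libraries 1.87, 3.28 and 17.5 CPM. MetR_RT was the lowest group and did not overlap MetR_CE, and the highest values belonged to 2 MetR_CE mice (17.5 and 12.4 CPM) and Ctrl_RT replicate 1 (9.29 CPM). Between Ctrl_RT and MetR_RT, the medians of macrophage markers (500.3 and 183 CPM), fibroblast markers (6112 and 1190 CPM) and skeletal muscle markers (126 and 602 CPM) also differed. In MetR_CE, the group with the highest Gdf15 median, these markers had medians of 125, 890.1 and 806 CPM. The part of these cell types in the Gdf15 result was not tested. Gdf15 fell by 2.20 in MetR_RT (SE 0.60, adjusted p = 0.00851), but without Ctrl_RT replicate 1 the change was −1.46 and was not called (adjusted p = 0.0534). MetR_CE exceeded MetR_RT by 3.53 ± 0.62 (11.6-fold, adjusted p = 0.00174), and the interaction was 3.82 ± 0.82 (adjusted p = 0.0158), both called in all 27 fits that left out a library. Against Ctrl_RT, MetR_CE gave 1.33 ± 0.55 (adjusted p = 0.0591) and Ctrl_CE −0.29 ± 0.55 (adjusted p = 0.74). The first of these was called without Ctrl_RT replicate 1 (2.07, adjusted p = 0.00221) and without MetR_CE replicate 1, 2 or 6, and the second turned to 0.46 (adjusted p = 0.536) without Ctrl_RT replicate 1.

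Of the receptor genes of iWAT, only Fgfr3 was called. It was 2.87, 4.04 and 5.85 CPM in Ctrl_RT, 5.73, 8.97 and 11.4 CPM in Ctrl_CE, 3.18, 5.15 and 6.66 CPM in MetR_RT and 8.28, 9.81 and 14.5 CPM in MetR_CE. Fgfr3 rose by 1.05 ± 0.19 in Ctrl_CE (adjusted p = 0.000143) and by 1.36 ± 0.19 in MetR_CE (adjusted p = 3.88e-06), and MetR_CE did not overlap Ctrl_RT. Klb medians were 70.9, 94.5, 84.2 and 88.8 CPM and its adjusted p was at least 0.0751 in every comparison. Fgfr1, the most abundant receptor transcript per kilobase, had medians of 284.3, 198.4, 251.3 and 241.3 CPM, and all Ctrl_CE libraries were below all Ctrl_RT libraries, although the change of −0.50 ± 0.12 (adjusted p = 0.00206) was under 1.5-fold. Fgfr2 gave 0.49 ± 0.18 in MetR_RT (adjusted p = 0.0447), also under 1.5-fold. Called members numbered 2 of 7 in each of Ctrl_CE, MetR_RT and MetR_CE, beside 15.9%, 11.6% and 22.4% of all 26428 genes. The counts were 3 in MetR_CE against MetR_RT, 1 in MetR_CE against Ctrl_CE and 1 for the interaction, beside 1.88%, 2.27% and 1.65% of all genes.

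In eWAT, 0 of the 7 genes were called in any of the 6 comparisons by edgeR, with 6 of 42 tests at an unadjusted p below 0.05, 2 calls by DESeq2 and 1 by DESeq2 with apeglm shrinkage. Of all 27786 genes, 2.42% were called in Ctrl_CE, 0.115% in MetR_RT and 1.3% in MetR_CE, 2.3% for the interaction, 0.112% in MetR_CE against MetR_RT and 4.35% in MetR_CE against Ctrl_CE. Fgf21 was 0.0675, 0.137, 0.257 and 1.23 CPM in the 4 Ctrl_RT libraries, 0.28, 1.29 and 3.06 CPM in Ctrl_CE, 0.11, 0.477 and 0.79 CPM in MetR_RT and 0.0685, 0.565 and 0.702 CPM in MetR_CE, from 2 to 61 counts per library. The highest group was Ctrl_CE, which differed from Ctrl_RT by 1.76 ± 0.69 (adjusted p = 0.15) and, without Ctrl_RT replicate 7, by 3.15 (adjusted p = 0.0273). MetR_CE differed from Ctrl_CE by −1.60 ± 0.56 (adjusted p = 0.0654). Gdf15 medians were 0.339, 0.666, 0.461 and 0.71 CPM in Ctrl_RT, Ctrl_CE, MetR_RT and MetR_CE, with changes of 0.63 ± 0.60, 0.07 ± 0.61 and 0.70 ± 0.60 that turned negative when the 4 libraries left out were included. Fgfr1 was lowest in Ctrl_CE, with medians of 332.2, 231.2, 287.7 and 319.5 CPM and every Ctrl_CE library below every Ctrl_RT library, at changes under 1.5-fold: −0.44 ± 0.11 for Ctrl_CE against Ctrl_RT (adjusted p = 0.0208) and 0.43 ± 0.09 for MetR_CE against Ctrl_CE (adjusted p = 0.00422). Klb medians lay between 69.5 and 88.8 CPM.

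Fgfr2, Fgfr3 and Fgfr4 in eWAT differed between libraries more than between groups. Fgfr4 was 0 to 0.337 CPM in 3 Ctrl_RT libraries and 36.1 CPM in the other, and in Ctrl_CE it ran from 0 to 36.1 CPM with a median of 8.83 CPM. The summed markers of keratinocyte and mammary epithelium (Krt5, Krt14, Krt18, Krt8 and Epcam) were at or above 50 CPM in 8 libraries, namely 1 of Ctrl_RT, 4 of Ctrl_CE, 1 of MetR_RT and 2 of MetR_CE, and at 1.87 to 32.7 CPM in the other 16. In those 8, Fgfr4 was 0.0375, 14.4 and 36.1 CPM (lowest, median and highest), Fgfr3 11.4, 23.3 and 41.9 CPM and Fgfr2 15.9, 33.1 and 41.4 CPM. In the 16, Fgfr4 was 0, 0.0854 and 6.32 CPM, Fgfr3 5.39, 9.91 and 14.6 CPM and Fgfr2 11.4, 14.5 and 21.3 CPM. The exception among the 8 was MetR_RT replicate 2, with 0.0375 CPM of Fgfr4, whose epididymal epithelium markers summed to 1269 CPM. Without the 8 libraries, Fgfr3 in MetR_CE was the only call (0.86, adjusted p = 0.0296), and the part of epithelial cells in these levels was not tested otherwise.

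**Figure D5:**
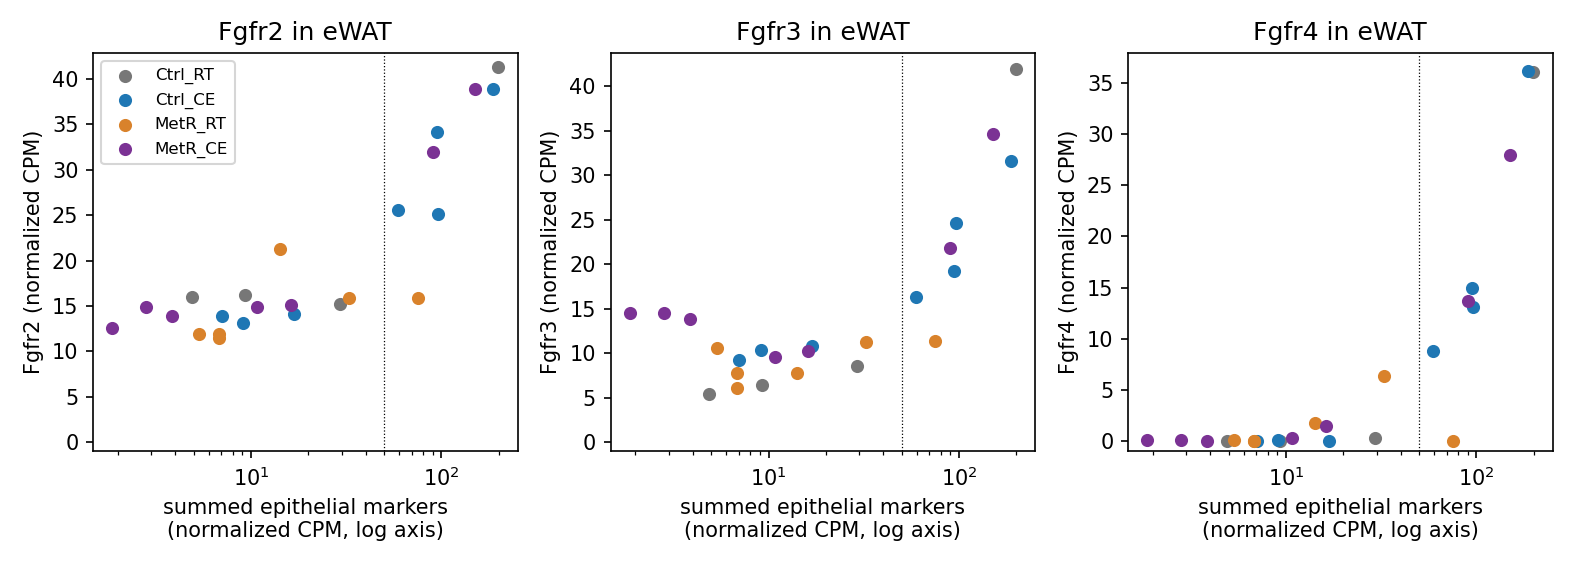
Fgfr2, Fgfr3 and Fgfr4 in the 24 eWAT libraries (normalized CPM) against the summed epithelial markers of the same library (normalized CPM, log axis), coloured by group, with a dotted line at 50 CPM. Libraries right of the line hold the high values of each gene, up to 41.4, 41.9 and 36.1 CPM.

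Differences between tissues were tested in 1 fit of all 105 libraries, over 3 comparisons with Ctrl_RT, 6 pairs of tissues and 7 genes. The same mice gave several tissues, and this fit had no term for the mouse. Of these 126 differences, 34 passed at an adjusted p below 0.05. Of all 32143 genes, the shares that passed for Ctrl_CE were 15.7% for liver against iBAT, 19% for liver against iWAT, 11.3% for liver against eWAT, 12.9% for iBAT against iWAT, 7.11% for iBAT against eWAT and 6.86% for iWAT against eWAT. In the same order they were 4.46%, 12.6%, 3.52%, 6.09%, 0.121% and 5.27% for MetR_RT and 14.7%, 20.4%, 9.26%, 15.4%, 9% and 16% for MetR_CE. The response of Gdf15 to cold was higher in iBAT than in liver by 4.70 ± 0.73 (adjusted p = 3.85e-07), than in iWAT by 3.84 ± 0.75 (adjusted p = 6.95e-05) and than in eWAT by 2.94 ± 0.85 (adjusted p = 0.0175). Its response to MetR_RT was higher in liver than in iWAT by 3.12 ± 0.64 (adjusted p = 0.000174). Fgf21 responded to MetR_RT more in liver than in iBAT, by 2.87 ± 0.83 (adjusted p = 0.0246), and to Ctrl_CE more in iWAT than in liver, by 2.10 ± 0.78 (adjusted p = 0.0453). The response of hepatic Klb to MetR_CE exceeded that of iBAT by 1.5 ± 0.22 (adjusted p = 1.07e-07), that of iWAT by 0.86 ± 0.22 (adjusted p = 0.00177) and that of eWAT by 1.26 ± 0.23 (adjusted p = 4.84e-05). Hepatic Fgfr1 differed in its MetR_RT response from iBAT by −1.05 ± 0.17 (adjusted p = 3.17e-06), from iWAT by −0.89 ± 0.16 (adjusted p = 1.65e-05) and from eWAT by −1.03 ± 0.18 (adjusted p = 3.86e-05). With limma and the mouse as a block, 22 of the 34 passed, whereas the Fgf21 differences (adjusted p of at least 0.15) and that of Gdf15 between iBAT and eWAT (adjusted p = 0.0811) did not.

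Other genes of the pathway were counted by role, and no count was tested against all genes. Of all genes, 11.9%, 6.91% and 13.5% were called in Ctrl_CE, MetR_RT and MetR_CE liver, 14.7%, 2.5% and 14.7% in iBAT, 15.9%, 11.6% and 22.4% in iWAT and 2.42%, 0.115% and 1.3% in eWAT. Of 11 further genes of the FGF family, 6 were tested in liver and 10 in eWAT, with 0 called by edgeR against Ctrl_RT in either tissue (5 of 18 and 5 of 30 tests at an unadjusted p below 0.05). In iBAT 9 were tested, with 2 up and 2 down in each cold group and 0 up and 2 down in MetR_RT. Fgf9, a ligand of FGFR2 and FGFR3, rose by 2.72 ± 0.23 in Ctrl_CE and 1.75 ± 0.23 in MetR_CE iBAT, whereas Fgf16, a ligand of the same subfamily, fell by 2.49 and 3.17. Fgf14 fell by 2.08 and 2.31, and Fgf1, the ligand of all FGF receptors, rose by 1.19 ± 0.17 and 0.85 ± 0.17 and fell by 0.66 in MetR_RT. In iWAT 10 of the family genes were tested, with 1 up and 3 down in Ctrl_CE, 1 up and 1 down in MetR_RT and 3 up and 4 down in MetR_CE. There Fgf1 rose by 1.14 ± 0.17, 1.12 ± 0.17 and 1.82 ± 0.18 in Ctrl_CE, MetR_RT and MetR_CE, and Fgf18 fell by 0.94, 1.23 and 2.27. The list medians against Ctrl_RT ran from −0.66 to 0.50, beside medians of all genes from −0.11 to 0.00.

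Of 12 modulators of FGF receptors, calls up and down in Ctrl_CE, MetR_RT and MetR_CE were 1 and 0, 0 and 1, and 1 and 0 in liver and 1 and 3, 0 and 2, and 1 and 5 in iBAT. They were 0 and 2, 1 and 1, and 3 and 2 in iWAT, and 0 and 0, 0 and 0, and 1 and 1 in eWAT. List medians were 0.22, −0.12 and 0.10 in liver, −0.50, −0.50 and −0.66 in iBAT, 0.10, 0.22 and −0.20 in iWAT and 0.11, 0.01 and −0.12 in eWAT. Called members were 4 of 12 in Ctrl_CE iBAT and 5 of 12 in MetR_CE iWAT, beside 14.7% and 22.4% of all genes. Fgfrl1, a receptor without a kinase domain, rose by 0.65 ± 0.13 and 0.70 ± 0.13 in Ctrl_CE and MetR_CE liver. Kl, which encodes α-Klotho, fell by 4.52 in Ctrl_CE iBAT (SE 1.10) and was not called in MetR_CE iBAT. The heparan sulfate proteoglycan gene Sdc4 rose by 1.24 ± 0.21 and 1.17 ± 0.20 in the cold groups of iBAT. Of 19 genes that relay FGF receptor signals, at most 2 rose and 1 fell in any tissue and comparison with Ctrl_RT, at list medians of 0.03 to 0.22. The adaptor gene Gab1 rose by 0.60 ± 0.09 and 0.75 ± 0.09 in Ctrl_CE and MetR_CE liver and fell by 0.80 and 0.76 in iBAT.

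Of 14 feedback inhibitors and immediate targets of FGF and ERK signalling, calls up and down in Ctrl_CE, MetR_RT and MetR_CE were 1 and 2, 3 and 1, and 1 and 4 in liver. They were 4 and 2, 0 and 0, and 2 and 2 in iBAT, 4 and 2, 3 and 1, and 3 and 3 in iWAT, and 2 and 0, 1 and 0, and 4 and 0 in eWAT. In liver, the 3, 4 and 5 of 14 called in Ctrl_CE, MetR_RT and MetR_CE stand beside 11.9%, 6.91% and 13.5% of all genes. In the same order, iBAT had 6, 0 and 4 beside 14.7%, 2.5% and 14.7%. In iWAT they were 6, 4 and 6 beside 15.9%, 11.6% and 22.4%, and in eWAT 2, 1 and 4 beside 2.42%, 0.115% and 1.3%. Spry2, an inhibitor of receptor tyrosine kinase signalling, rose in liver by 0.92 ± 0.28, 0.87 ± 0.28 and 1.18 ± 0.28. Its relative Spry4 fell by 0.75 in Ctrl_CE liver, and the ERK phosphatase gene Dusp5 fell by 0.74 in MetR_RT and 0.79 in MetR_CE liver. The phosphatase genes Dusp4 and Dusp6, in contrast, were called up in MetR_RT liver. In fat Spry4 rose by 1.45 ± 0.22 and 1.22 ± 0.21 in the cold groups of iBAT, by 1.57 ± 0.27, 1.06 ± 0.27 and 1.77 ± 0.28 in iWAT and by 1.42 ± 0.34 and 1.38 ± 0.34 in Ctrl_CE and MetR_CE eWAT. Spred2, an inhibitor of RAS and ERK signalling, rose by 0.85 ± 0.13, 0.70 ± 0.13 and 1.11 ± 0.13 in iWAT and by 0.69 ± 0.10 in both MetR_RT and MetR_CE eWAT, the former being the only member of the list called in MetR_RT eWAT. The ERK phosphatase gene Dusp6 rose by 1.08 ± 0.21 and 0.93 ± 0.20 in the cold groups of iBAT. Of the other phosphatases, Dusp4 rose by 1.18 ± 0.21, 0.88 ± 0.21 and 1.12 ± 0.21 in iWAT, where Dusp5 fell by 1.02, 1.41 and 1.23. Il17rd, another inhibitor, fell by 0.59 in MetR_CE iWAT. The immediate-early gene Fos fell in MetR_CE by 1.99 in liver, 2.7 in iBAT and 2.79 in iWAT. Egr1 fell in MetR_CE by 2.52 in liver and 2.58 in iBAT. In Ctrl_CE, Fos was also called down in iBAT and iWAT and Egr1 in iBAT, whereas neither was called in liver. List medians were −0.09, 0.30 and 0.11 in liver, 0.44, 0.14 and 0.40 in iBAT, −0.09, 0.10 and 0.24 in iWAT and 0.16, 0.27 and 0.27 in eWAT. Many stimuli act on these genes, and which of them acted was not tested.

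Of 6 genes for processing of the hormones and for the GDF15 receptor, 4 were tested in liver and 5 in eWAT, with 0 called by edgeR against Ctrl_RT (7 of 12 and 2 of 15 tests at an unadjusted p below 0.05). Of 5 tested in iBAT and in iWAT, calls up and down in Ctrl_CE, MetR_RT and MetR_CE were 1 and 1, 0 and 0, and 0 and 2 in iBAT and 0 and 2, 0 and 1, and 1 and 2 in iWAT. Ret, which encodes the signalling receptor that GDF15 uses with GFRAL, rose by 0.71 ± 0.21 in Ctrl_CE iBAT and 0.83 ± 0.27 in MetR_CE iWAT. Dpp4, which encodes a protease that cleaves human FGF21, fell by 1.27 in MetR_CE iBAT and by 1.14 and 1.76 in Ctrl_CE and MetR_CE iWAT. Fap encodes a protease that inactivates human FGF21. It fell by 0.62 and 0.96 in Ctrl_CE and MetR_CE iBAT and by 0.76, 0.95 and 1.39 in Ctrl_CE, MetR_RT and MetR_CE iWAT. Summed fibroblast markers had lower medians than Ctrl_RT in the same groups of both tissues. These were 199.7 and 145 against 306 CPM in iBAT and 1797, 1190 and 890.1 against 6112 CPM in iWAT. The median was also lower in MetR_RT iBAT (177 CPM), where Fap was not called. The part of fibroblasts in the Fap result was not tested. Of 6 genes of the hepatic FGF15, FGFR4 and β-Klotho axis, 0 rose and 2, 1 and 2 fell in Ctrl_CE, MetR_RT and MetR_CE liver. They were Cyp7b1, an enzyme of the alternative bile acid pathway, which fell by 1.12, 1.12 and 0.70, and Nr0b2, which encodes the repressor SHP and fell by 0.95 in Ctrl_CE and 1.24 in MetR_CE. Cyp7a1, the rate-limiting enzyme of bile acid synthesis, gave 1.16 ± 0.55, −0.02 ± 0.55 and 1.38 ± 0.55 and was not called.

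Of 18 genes of the integrated stress response, most calls in liver came in the restricted groups. In liver, 0 rose in Ctrl_CE, 9 in MetR_RT and 7 in MetR_CE and none fell, at list medians of −0.06, 0.67 and 0.42 beside −0.01, 0.00 and −0.04 for all genes. The cystine transporter gene Slc7a11 rose by 4.35 ± 0.70 and 3.90 ± 0.74 in MetR_RT and MetR_CE, and the serine synthesis gene Psat1 by 3.23 ± 0.26 and 2.90 ± 0.26. The mitochondrial one-carbon gene Mthfd2 rose by 2.13 ± 0.29 and 1.75 ± 0.29 and the stress gene Nupr1 by 2.08 ± 0.19 and 1.09 ± 0.19. In iBAT 7 rose and 2 fell in Ctrl_CE, 2 rose and 0 fell in MetR_RT and 6 rose and 2 fell in MetR_CE, led by Mthfd2 at 3.59 ± 0.40, 2.13 ± 0.39 and 3.16 ± 0.39. In iWAT 4, 4 and 8 rose and 2, 3 and 2 fell, with Trib3, a pseudokinase gene induced by ATF4, up by 0.81 ± 0.23 in MetR_RT and 1.88 ± 0.23 in MetR_CE and Slc7a11 down by 3.01 in MetR_RT. In eWAT 0, 0 and 2 rose (Chac1 by 1.11 ± 0.28 and Trib3 by 0.86 ± 0.19) and 1, 0 and 0 fell.

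Regulators and targets of PPARα, a list of 15 genes, had 7 calls up in Ctrl_CE, 1 in MetR_RT and 7 in MetR_CE liver and none down, at list medians of 0.55, −0.05 and 0.53. Cyp4a14, a fatty acid hydroxylase gene, rose in all 3 groups by 2.92 ± 0.77, 2.65 ± 0.76 and 3.73 ± 0.79, whereas Ppara itself rose by 1.33 ± 0.17 and 1.53 ± 0.17 in Ctrl_CE and MetR_CE and gave 0.00 ± 0.17 in MetR_RT. In iBAT 2, 0 and 2 rose and 5, 3 and 6 fell, in iWAT 4, 4 and 7 rose and 3, 2 and 1 fell, and in eWAT 0 rose and 4, 1 and 1 fell. Ppargc1a, a coactivator of PPARs, rose by 2.44 ± 0.21 and 2.37 ± 0.21 in Ctrl_CE and MetR_CE iBAT and by 2.71 ± 0.32, 1.21 ± 0.31 and 2.92 ± 0.33 in iWAT. Of 12 thermogenic genes of fat linked to FGF21, 4, 1 and 4 rose in iBAT and 1, 1 and 1 fell, 6, 6 and 8 rose in iWAT and 1, 0 and 1 fell, and 2, 0 and 0 rose in eWAT and 2, 0 and 1 fell. The list medians were 0.13, 0.02 and 0.17 in iBAT and 0.63, 0.57 and 0.84 in iWAT. Dio2, which encodes the enzyme that activates thyroid hormone, rose in iWAT by 4.93 ± 0.56, 2.31 ± 0.51 and 5.21 ± 0.57, and Ucp1, the uncoupling protein of brown fat, by 4.08 ± 0.75, 3.61 ± 0.73 and 4.58 ± 0.77. In MetR_RT iBAT the calls of this list went opposite ways, with Elovl3 up and Dio2 down by 0.98. Dio2 rose by 1.93 ± 0.25 in Ctrl_CE iBAT.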

How the data were processed

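RNA-seq of liver, iBAT, iWAT and eWAT was analysed from 3 deposited tables of whole-number counts per gene (liver, eWAT, and iBAT with iWAT). The authors aligned reads with STAR 2.7.9a to mm10 with GENCODE vM25 and counted with featureCounts 2.0.3, and also list Salmon 1.9.0 with tximport. The deposited counts carry Salmon in their names, so which of these made them is not settled, and the library kit did not mark strand. The 5 libraries the study left out were left out here, identified by matching mean counts to its source data (median deviation 0.251% in iBAT and 0.151% in eWAT) (iBAT Ctrl_CE replicate 5, eWAT Ctrl_RT replicates 2, 4 and 5, eWAT MetR_RT replicate 7).

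Genes with at least 10 counts in total were tested per tissue in 1 fit of the 4 groups with edgeR 4.0.16 (TMM, quasi-likelihood test) and Benjamini-Hochberg adjustment over all genes. Calls needed an adjusted p below 0.05 and 1.5-fold. Library totals were 6987895 to 33444374 counts in liver, 12672686 to 31232349 in iBAT, 16607493 to 33141066 in iWAT and 22021114 to 33372110 in eWAT. Low counts limit the precision of Fgf21 and Gdf15 in fat. Tissue differences came from a joint fit of 105 libraries over 32143 genes. The fit was tested on simulated data. Replicate numbers did not pair libraries. GENCODE M21 on GRCm38 gave exon lengths. Alternatives used DESeq2 1.42.0, apeglm 1.24.0 and limma 3.58.1 in R 4.3.3, other filters and library sets, and leaving out 1 library at a time. Correlations were tested by exact permutation in scipy 1.17.1.

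The 7 genes and the lists by role were chosen with earlier results of these data known. The text names, in each list and tissue, up to 4 called genes with the largest changes, of which some are given. Spry4 and Dusp5 in liver, Dusp6 in iBAT and Spred2 and Il17rd in iWAT were named outside this rule, after their values were seen. Dusp4 and Dusp6 in MetR_RT liver and Elovl3 in MetR_RT iBAT were named so that every call of their lists there is given. Separate mice were the replicates within a tissue. The same mice gave several tissues, which the joint fit in edgeR treated as independent. Motif counts and correlations were added after the values had been seen.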

Additional observations from a re-analysis of the deposited data

Results flagged for a closer look

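In 16 of 112 groups of 4 to 7 libraries, the highest or lowest level lay farther from the rest than Dixon's 95% criterion allows. Chance alone would give this in about 1 of 20 independent groups of normally distributed values. The levels here were CPM without a log scale, and the 7 genes share libraries, so that rate need not hold. In liver these were Fgf21 in MetR_CE replicate 1 (61.1 CPM, next 27.9 CPM), Gdf15 in Ctrl_RT replicate 1 (22.5 CPM) and Fgfr3 in MetR_CE replicate 4 (63.9 CPM). In iBAT they were Gdf15 in Ctrl_RT replicate 2 (0.688 CPM) and Fgfr1 in Ctrl_CE replicate 3 (100.1 CPM). In iWAT they were Gdf15 in Ctrl_RT replicate 1 (9.29 CPM), Klb in MetR_RT replicate 3 (138 CPM) and Fgfr4 in MetR_RT replicate 6 (0.476 CPM). In eWAT, Ctrl_RT replicate 6 stood apart for Fgfr2 (41.4 CPM), Fgfr3 (41.9 CPM), Fgfr4 (36.1 CPM) and Gdf15 (1.31 CPM), and Ctrl_RT replicate 7 for Fgf21 (1.23 CPM). Fgfr4 stood apart in eWAT MetR_RT replicate 5 (6.32 CPM) and Ctrl_CE replicate 2 (36.1 CPM), and Gdf15 in MetR_CE replicate 4 (2.61 CPM).

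Responses that differed between tissues in the joint fit are given as the first tissue minus the second on the log2 scale, each against Ctrl_RT. This fit had no term for the mouse. With limma and the mouse as a block, 22 of the 34 differences passed. Those of Fgf21 and that of Gdf15 for Ctrl_CE between iBAT and eWAT did not. Further differences that did not pass with limma are listed below without a mark. For Fgf21 they were −2.10 for Ctrl_CE and −2.13 for MetR_CE (liver minus iWAT), 2.87 for MetR_RT (liver minus iBAT) and 3.82 for MetR_CE (iWAT minus eWAT). For Gdf15 they were −4.70 for Ctrl_CE and −4.07 for MetR_CE (liver minus iBAT), 3.84 and 2.94 for Ctrl_CE (iBAT minus iWAT and iBAT minus eWAT), and 3.12 for MetR_RT and −2.52 for MetR_CE (liver minus iWAT). In iWAT itself, the interaction of diet and cold was 3.82 for Gdf15.

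For Klb the differences were 1.14 for Ctrl_CE, 0.89 for MetR_RT and 1.5 for MetR_CE (liver minus iBAT). They were 0.67 for Ctrl_CE and 1.26 for MetR_CE (liver minus eWAT), 0.86 for MetR_CE (liver minus iWAT) and −0.64 for MetR_CE (iBAT minus iWAT). Fgfr1 gave −1.05 for MetR_RT and −0.60 for MetR_CE (liver minus iBAT), −0.89 and −0.62 (liver minus iWAT) and −1.03 and −0.90 (liver minus eWAT).

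Fgfr2 gave 1.59 for Ctrl_CE and 1.62 for MetR_CE (liver minus iBAT), −1.32 for Ctrl_CE and −1.25 for MetR_CE (iBAT minus iWAT), and −1.28 for Ctrl_CE (iBAT minus eWAT). For MetR_RT it gave 1.09 (liver minus eWAT) and 1.08 (iWAT minus eWAT). Fgfr3 gave −1.01 for Ctrl_CE and −1.63 for MetR_CE (liver minus iWAT), −0.99 for MetR_CE (liver minus iBAT) and 1.25 for MetR_CE (iWAT minus eWAT).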

How the results depend on the processing

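Of 1878 values recomputed under another setting, 1736 kept direction and side of the threshold, and 23 reversed, each among values with adjusted p of at least 0.403. The cause of the changes was not tested. When the test itself required 1.5-fold (edgeR's glmTreat), 5 liver and 4 iWAT calls stood instead of 10 and 11, and calls were lost for Gdf15 in Ctrl_CE (−1.18) and MetR_CE (−1.20) and Fgf21 in MetR_CE (1.9) liver, and for Fgf21 (1.52) and Gdf15 (−2.20) in MetR_RT iWAT. In eWAT, 1 call arose with a stricter count filter (filterByExpr), with fits of only the groups compared, with apeglm and without the keratin libraries, and 2 arose with DESeq2, where Fgf21 in Ctrl_CE gave 1.79. Gdf15 in MetR_CE iWAT was called with filterByExpr (1.31), DESeq2 (1.33) and apeglm (0.93). Including all libraries turned Gdf15 in eWAT to −0.80 (Ctrl_CE), −1.01 (MetR_RT) and −0.73 (MetR_CE) and Fgf21 in MetR_CE to −0.0051. Without the 3 libraries of differing tag, Gdf15 in MetR_RT iBAT was −0.0049.

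Replicate numbers do not pair the mice. Same-numbered libraries had median correlations of −0.0053 (liver), −0.0024 (iBAT), 0.052 (iWAT) and 0.0841 (eWAT). With the replicate block, Gdf15 in MetR_RT liver (0.85) and Fgf21 in Ctrl_CE eWAT (2.30, the 1 eWAT call) were called, Fgf21 in MetR_CE liver (1.70) was not, and Gdf15 in MetR_RT eWAT turned to −0.27.

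Leaving out 1 library at a time gave 8 to 12 calls in liver, 12 to 13 in iBAT, 10 to 12 in iWAT and 0 to 2 in eWAT. In liver, Gdf15 ranged from −1.30 to −0.90 (Ctrl_CE), 0.60 to 1.15 (MetR_RT) and −1.42 to −0.93 (MetR_CE), and Fgf21 in MetR_CE from 1.27 to 2.23. Gdf15 in MetR_RT iBAT ranged from −0.12 to 0.77. Gdf15 in iWAT ranged from −0.52 to 0.46 (Ctrl_CE), −2.36 to −1.46 (MetR_RT) and 0.77 to 2.07 (MetR_CE). In eWAT, Fgf21 ranged from 1.41 to 3.15 (Ctrl_CE), −0.15 to 1.58 (MetR_RT) and −0.20 to 1.53 (MetR_CE), and Gdf15 in MetR_RT from −0.19 to 0.96. Counts under 20 per library limit Gdf15 in room temperature iBAT and Fgf21 in Ctrl_RT eWAT outside replicate 7. Median counts were also low for Fgf21 in Ctrl_RT iWAT (8), Ctrl_RT iBAT (14.5) and MetR_RT iBAT (12) and for Gdf15 in MetR_RT iWAT (12). In eWAT, Gdf15 had median counts of 10, 16, 12 and 22 in Ctrl_RT, Ctrl_CE, MetR_RT and MetR_CE.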

Other observations

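The genes whose log2 levels ran most like those of Fgf21 and Gdf15 were sought among 12368 to 14291 genes per tissue with a mean of at least 1 CPM by Pearson's r over its libraries, which share group, depth and tissue composition. For Fgf21 they were Gadd45a (0.910), Acot13 (0.813) and Amotl2 (0.791) over 28 livers. Over 26 iBAT libraries they were Tbc1d9 (0.956), Ncoa1 (0.952) and mt-Rnr1 (0.948). Over 27 iWAT libraries they were Tomm70a (0.952), Ppp2r2a (0.940) and March5 (0.939), and over 24 eWAT libraries Fkbpl (0.845), Pde12 (0.844) and Cox7a1 (0.832).

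For Gdf15 they were Vps16 (0.804), Hmga1 (0.791) and Syf2 (0.782) in liver and Tnfrsf1a (0.953), Hif1a (0.952) and Slc25a17 (0.945) in iBAT. In iWAT they were Plekhm2 (0.770), Slc6a8 (0.758) and Ptbp1 (0.745), and in eWAT Prps2 (0.890), Tbc1d9 (0.866) and Camk2b (0.865).

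In the libraries left out, values are CPM without TMM scaling. The iBAT library Ctrl_CE replicate 5 had 6.80 CPM of Fgf21 and 5.29 CPM of Gdf15. In eWAT, Ctrl_RT replicates 2, 4 and 5 had 0.223, 36.6 and 10.6 CPM of Fgfr4, and MetR_RT replicate 7 had 36 CPM. The same 4 libraries had 6.83, 1.69, 0.995 and 2.23 CPM of Gdf15 and 0.446, 0.464, 0.884 and 1.04 CPM of Fgf21.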
